A study of Mus musculus with 12 samples.

Results

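Amino acid transporter genes were taken as the mouse genes of the solute carrier (Slc) families 1, 3, 7, 36, 38 and 43, by symbol. Each gene was represented by its probe set with 1 symbol and the highest mean over 12 arrays. The rule gave 42 genes of the 19938 tested, and 44 probe sets carried their symbols. RNA of 1 clone of D3, a line of mouse embryonic stem (ES) cells, was measured on Affymetrix arrays in 4 groups of 3 samples, described in the labels as biological replicates. The first group was ES cells at day 0. The others were embryoid bodies (EBs): untreated at day 4, exposed to DMSO, the solvent, over 12 h, or exposed over 12 h to 5 micromolar ATRA (all-trans retinoic acid). EBs are aggregates formed here without LIF, the cytokine that keeps mouse ES cells undifferentiated. No group carried a genetic change that the labels name. Whether those 12 h belonged to the 4 days or followed them is left unsaid in the labels.

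Cells take up amino acids through carriers that differ in substrate and driving ion. Slc3 proteins are heavy subunits that bring Slc7 light chains to the plasma membrane, and the light chains exchange one amino acid for another. The CAT branch of Slc7 carries arginine and lysine without a heavy subunit. Slc1 carriers take up glutamate or exchange small neutral amino acids, and Slc38 carriers bring in glutamine, alanine and related amino acids with sodium. Slc36 includes carriers driven by protons, and Slc43 includes carriers of leucine-like amino acids. Mouse ES cells depend on a steady supply of threonine, and amino acid supply feeds the kinase mTORC1.

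All values are the authors' log2 values, read without a filter on low values. A difference is given as log2 difference ± SE from limma over all 12 arrays (n = 3 per group), and a gene was called when its p-value, adjusted over the 19938 genes by the Benjamini-Hochberg method, was below 0.05. A probe set's level also depends on its probes, so single genes were not ranked by level, and splits at the median gene and sums over markers are descriptions of signal. The table holds no detection calls. Over the 42 genes and 4 groups, the SD within a group ran from 0.0047 to 0.30 with a median of 0.06, the largest being that of Slc7a11. The array medians lay between 7.76 and 7.86, and the values were least spread on the arrays of ES replicate 2 and EB replicate 2. Of 8 pluripotent cell markers, 3 rose from ES cells to day 4 EBs, 0 were called lower by limma (1 at an unadjusted p under 0.05), and 3 (Sox2, Utf1 and Zfp42) fell with ATRA against DMSO. Their summed linear level was 66300 to 69600 in ES cells, 71500 to 74900 in day 4 EBs, 74000 to 74500 with DMSO and 70100 to 70300 with ATRA. In both cases the 3 calls were 37.5% of these markers. Of all genes, 34.7% were called from ES cells to day 4 EBs and 13.3% with ATRA against DMSO.

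The first comparison set day 4 EBs against ES cells, which differ at once in aggregation, time and LIF. The labels do not say whether the ES cells were grown with fibroblast feeder cells. Of the 42 genes, 21 rose, 7 fell and 14 were not called, against 17.8% of all genes that rose and 16.9% that fell. In all, 28 were called, or 66.7%, against 34.7% of all genes, and the median difference of the 42 genes was 0.17 against -4.3e-04 over all genes. The largest rises were in Slc7a11, Slc7a3 and Slc7a8, and the largest falls in Slc38a8, Slc43a3 and Slc36a4. Slc7a11 and Slc38a8 had means below that of the median gene. A change of at least 1.5-fold was called for 11 members, and for 7.19% of all genes. Of the 24 members whose mean lay above that of the median gene, 23 were called, where 48.8% of all genes above the median were called. Of the 18 others 5 were called, or 27.8%. All genes held 6925 calls, and 4868 of these were among the 9969 genes above the median. The 14 members that were not called had differences between -0.18 (Slc38a11) and 0.12 (Slc38a10).

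**Figure D1:**
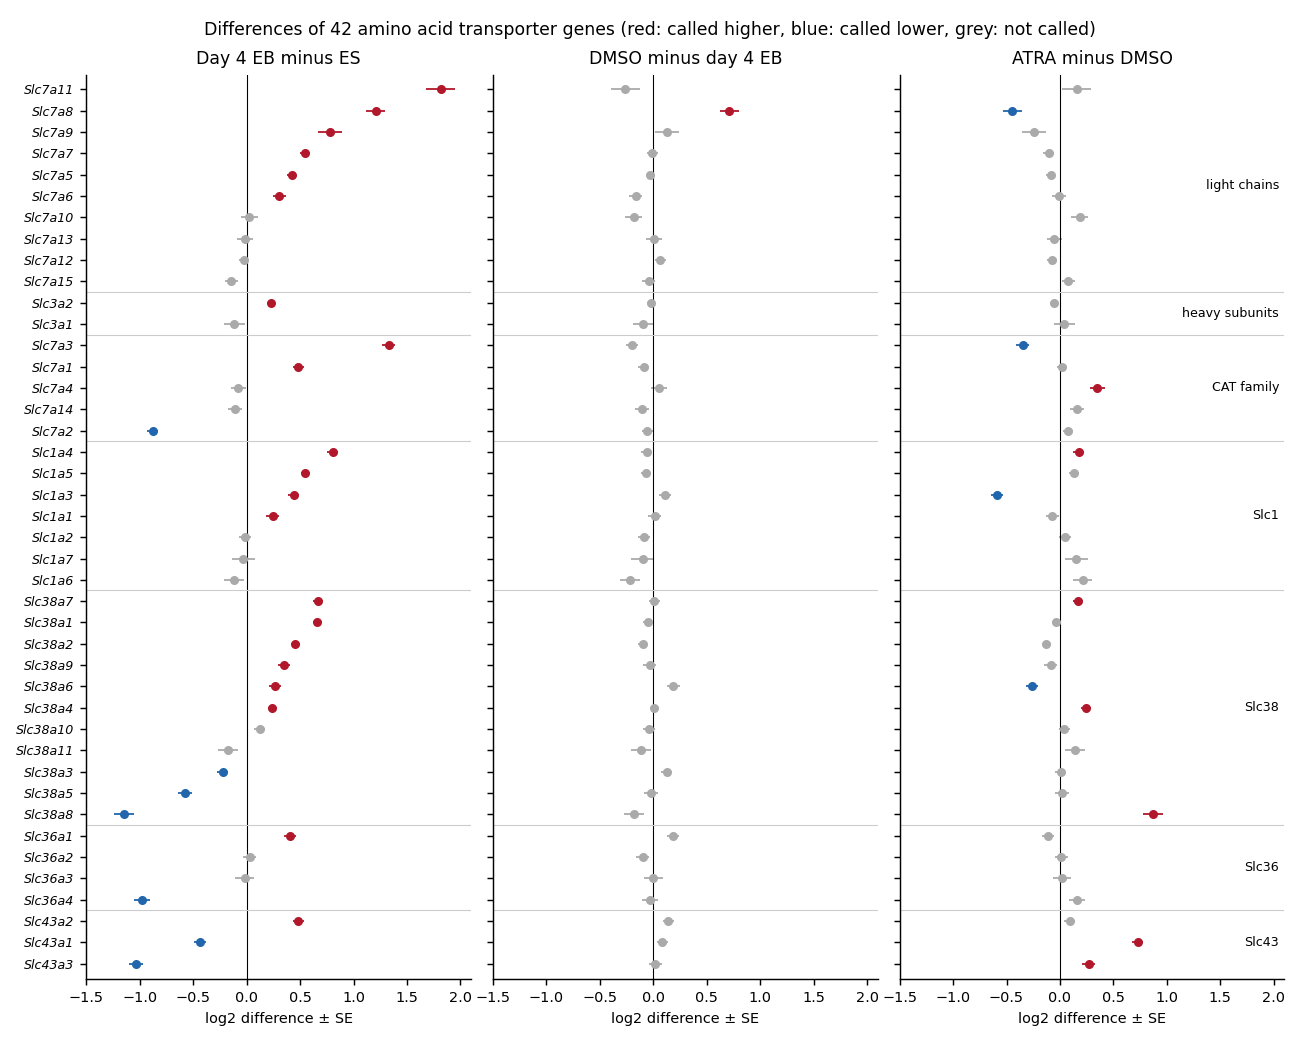
Log2 differences ± SE of the 42 genes in 3 comparisons, with genes on the vertical axis by family and subunit role. Red points were called higher, blue points lower and grey points were not called. The left panel holds 28 calls, the middle panel 1 (Slc7a8) and the right panel 11.

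Among the light chains, 6 of 10 genes rose and 4 were not called. Slc7a11 encodes xCT, which brings in cystine for glutathione synthesis in exchange for glutamate. Slc7a11 read 6.56, 6.64 and 6.72 in ES cells, 8.71, 8.13 and 8.54 in day 4 EBs, 8.0, 8.46 and 8.11 with DMSO and 8.29, 8.36 and 8.38 with ATRA. Every EB array, treated or not, lay above every ES array, while the untreated and treated EB arrays overlapped. The rise from ES cells to day 4 EBs was 1.82 ± 0.14, or 3.52-fold (adjusted p = 4.85e-07).

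The promoter of Slc7a11 is shown because its gene had the largest rise of the 42, and because promoters of genes that respond to amino acid shortage can hold a CARE, an element bound by ATF4. The 250 bases before each gene's start in the RefSeq promoter table (GRCm38.p6) were searched on both strands for TGATGNAA, a core of that element, with overlapping matches counted. Of the 42 members, 31 were in the table, and 2 of these 31 genes (6.45%) held the motif, against 3.91% of all 27025 genes. Slc7a11 held 2 copies on opposite strands, which begin 66 and 47 bases before the start. Windows with 2 or more copies made up 0.0396% of all windows and 2.38% of the windows of members. As Slc7a11 was picked for its rise, these shares are a description. Slc7a7 held 1 copy in each of 2 of its windows, and 1 of these windows is shown. Chac1 and Asns, members of an ATF4 response list, are shown beside them: 4 of 15 such genes held the motif (Asns, Atf3, Chac1 and Nupr1). Capitals mark the motif, and each sequence runs 5′ to 3′ on the strand of its gene. The windows are chr3:50443614-50443863, minus strand for Slc7a11; chr14:54417703-54417952, minus strand for Slc7a7; chr2:119350992-119351241, plus strand for Chac1; and chr6:7693210-7693459, minus strand for Asns. A match is a description of these letters and does not show binding. Members without an entry in the table were Slc1a5, Slc36a2, Slc38a1, Slc38a3, Slc43a3, Slc7a12, Slc7a13, Slc7a2, Slc7a3, Slc7a4 and Slc7a5.
Slc7a11: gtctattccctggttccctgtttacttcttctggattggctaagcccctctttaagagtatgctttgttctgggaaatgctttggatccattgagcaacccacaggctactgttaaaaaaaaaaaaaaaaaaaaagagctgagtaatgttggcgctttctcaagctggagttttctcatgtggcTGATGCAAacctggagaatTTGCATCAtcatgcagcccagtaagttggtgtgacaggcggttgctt
Slc7a7: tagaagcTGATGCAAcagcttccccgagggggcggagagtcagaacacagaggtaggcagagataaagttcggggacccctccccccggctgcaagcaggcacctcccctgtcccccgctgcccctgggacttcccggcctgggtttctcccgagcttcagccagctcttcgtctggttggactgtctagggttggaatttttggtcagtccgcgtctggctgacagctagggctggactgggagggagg
Chac1: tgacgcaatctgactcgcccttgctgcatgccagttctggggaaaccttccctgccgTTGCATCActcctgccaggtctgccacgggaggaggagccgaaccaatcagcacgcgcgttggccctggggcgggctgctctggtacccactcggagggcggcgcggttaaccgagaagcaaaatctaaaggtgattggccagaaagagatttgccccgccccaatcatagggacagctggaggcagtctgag
Asns: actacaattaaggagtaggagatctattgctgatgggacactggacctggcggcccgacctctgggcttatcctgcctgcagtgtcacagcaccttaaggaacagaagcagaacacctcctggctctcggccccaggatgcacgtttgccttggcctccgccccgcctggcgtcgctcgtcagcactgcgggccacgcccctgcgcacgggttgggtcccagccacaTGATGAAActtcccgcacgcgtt

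Slc7a7, whose window is printed above with 1 motif, encodes y+LAT1, which exports cationic amino acids in exchange for neutral ones. Slc7a7 read 11.80, 11.68 and 11.70 in ES cells, 12.33, 12.23 and 12.26 in day 4 EBs, 12.21, 12.27 and 12.31 with DMSO and 12.14, 12.15 and 12.18 with ATRA. All EB arrays lay above the ES arrays, and the rise to day 4 EBs was 0.55 ± 0.05 (adjusted p = 2.25e-06). Slc7a8 encodes LAT2, a carrier of neutral amino acids in absorptive epithelia. Slc7a8 read 7.79, 7.56 and 7.59 in ES cells, 8.80, 8.85 and 8.90 in day 4 EBs, 9.70, 9.39 and 9.59 with DMSO and 9.26, 9.0 and 9.08 with ATRA. Its 4 groups did not overlap, with the order ES cells, day 4 EBs, ATRA and DMSO from low to high. The rise to day 4 EBs was 1.21 ± 0.09, or 2.31-fold (adjusted p = 4.39e-07). Slc7a9 encodes b0,+AT, the light chain of the cystine carrier of kidney and intestine. Slc7a9 read 6.72, 7.12 and 6.65 in ES cells, 7.54, 7.71 and 7.60 in day 4 EBs, 7.79, 7.62 and 7.83 with DMSO and 7.63, 7.49 and 7.38 with ATRA. ES replicate 2 stood above the other ES arrays, yet below every EB array, and the rise was 0.78 ± 0.11 (adjusted p = 0.000128).

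Slc7a5 encodes LAT1, the main uptake carrier for leucine and other large neutral amino acids in growing cells. Slc7a5 read 13.16, 13.22 and 13.15 in ES cells, 13.64, 13.58 and 13.56 in day 4 EBs, 13.53, 13.59 and 13.58 with DMSO and 13.48, 13.47 and 13.50 with ATRA. The rise to day 4 EBs was small, 0.42 ± 0.04 (adjusted p = 7.16e-06), and the ES arrays lay below all others. Slc7a6 encodes y+LAT2. Slc7a6 read 11.59, 11.54 and 11.54 in ES cells, 11.73, 11.93 and 11.92 in day 4 EBs, 11.63, 11.63 and 11.81 with DMSO and 11.69, 11.72 and 11.65 with ATRA. Its day 4 EB arrays lay above the ES arrays by 0.31 ± 0.06 (adjusted p = 0.00236). The heavy subunit gene Slc3a2 encodes 4F2hc (CD98), the partner of most of these light chains. Slc3a2 read 13.49, 13.50 and 13.51 in ES cells, 13.73, 13.69 and 13.76 in day 4 EBs, 13.71, 13.71 and 13.70 with DMSO and 13.64, 13.67 and 13.65 with ATRA. It rose by 0.23 ± 0.04 (adjusted p = 0.000514) with no overlap between ES cells and day 4 EBs, while the day 4 EB and DMSO arrays overlapped. Slc3a1 encodes rBAT, the heavy subunit that pairs with b0,+AT. Slc3a1 read 6.53, 6.98 and 6.96 in ES cells, 6.62, 6.78 and 6.72 in day 4 EBs, 6.56, 6.69 and 6.58 with DMSO and 6.61, 6.66 and 6.68 with ATRA. The groups overlapped, ES replicate 1 lay below the other ES arrays, and the difference of -0.12 ± 0.10 was not called (adjusted p = 0.416). The rise of Slc7a9 was not accompanied by a called difference in Slc3a1.

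Members of the CAT branch went both ways. Slc7a3 encodes CAT3, a carrier of arginine and lysine. Slc7a3 read 11.54, 11.56 and 11.48 in ES cells, 12.88, 12.75 and 12.93 in day 4 EBs, 12.57, 12.73 and 12.68 with DMSO and 12.25, 12.33 and 12.34 with ATRA. All day 4 EB arrays lay above all ES arrays, a rise of 1.33 ± 0.06, or 2.51-fold (adjusted p = 4.91e-09). Slc7a2 encodes CAT2, the arginine carrier known from liver and macrophages. Slc7a2 read 7.90, 8.03 and 7.97 in ES cells, 7.08, 7.13 and 7.04 in day 4 EBs, 7.01, 7.0 and 7.07 with DMSO and 7.15, 7.10 and 7.05 with ATRA. It fell, by a difference of -0.88 ± 0.05, or 1.84-fold lower (adjusted p = 4.3e-08), and all 9 EB arrays lay between 7.0 and 7.15. Slc7a1, the gene of the widely expressed CAT1, rose by 0.48 ± 0.05 (adjusted p = 9.54e-06). The CAT-like genes Slc7a4 and Slc7a14 were not called, at -0.08 ± 0.07 and -0.11 ± 0.07.

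**Figure D2:**
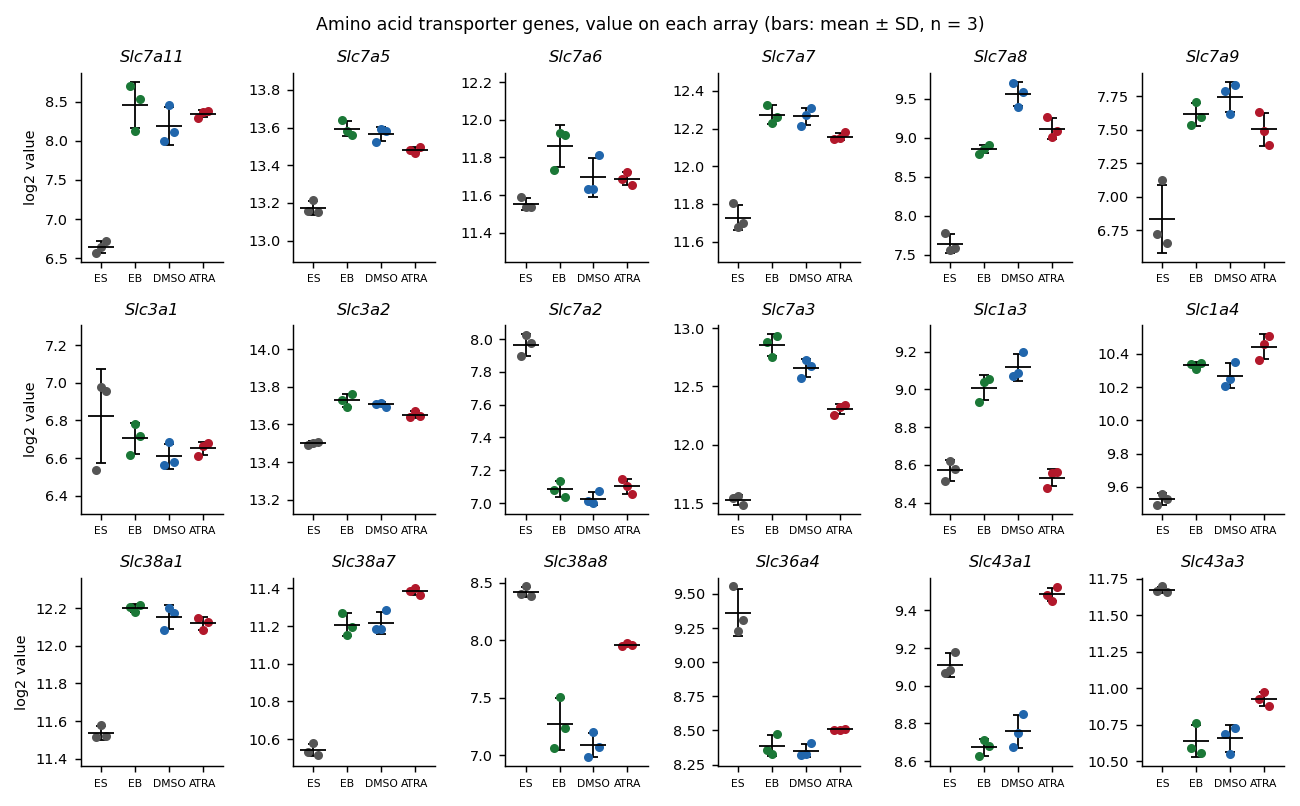
Log2 value on each array (vertical axes, which differ between panels and do not start at 0) for the 18 genes given with every array, by group. Points are arrays and bars are mean ± SD (n = 3). Slc7a11 lay between 6.56 and 6.72 in ES cells and between 8.0 and 8.71 on all EB arrays.

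Of the 7 Slc1 genes, 4 rose and 3 were not called. Slc1a4 encodes ASCT1, an exchanger of alanine, serine and cysteine. Slc1a4 read 9.49, 9.56 and 9.53 in ES cells, 10.34, 10.31 and 10.35 in day 4 EBs, 10.21, 10.25 and 10.35 with DMSO and 10.36, 10.46 and 10.51 with ATRA. The rise to day 4 EBs was 0.81 ± 0.05, or 1.75-fold (adjusted p = 1.41e-07), with no overlap. Slc1a5, the gene of the glutamine exchanger ASCT2, rose by 0.55 ± 0.04 (adjusted p = 9.04e-07). The glutamate carrier gene Slc1a1 (EAAT3) rose by 0.24 ± 0.06 (adjusted p = 0.00756). With ES replicate 2 and EB replicate 2 both left out, the difference of Slc1a1 was 0.17 and its call ended (adjusted p = 0.0658). Slc1a3 encodes the glutamate carrier GLAST, known from astrocytes and radial glia. Slc1a3 read 8.51, 8.62 and 8.58 in ES cells, 8.93, 9.04 and 9.06 in day 4 EBs, 9.07, 9.09 and 9.20 with DMSO and 8.48, 8.56 and 8.56 with ATRA. It rose by 0.44 ± 0.05 (adjusted p = 3.9e-05), and the ATRA arrays overlapped the ES arrays. Slc1a2, Slc1a6 and Slc1a7, glutamate carrier genes of astrocytes, cerebellum and retina, differed by -0.12 to -0.02 and were not called.

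Of the 11 Slc38 genes, 6 rose and 3 fell. Slc38a1 encodes SNAT1, a glutamine carrier. Slc38a1 read 11.52, 11.58 and 11.52 in ES cells, 12.21, 12.18 and 12.22 in day 4 EBs, 12.08, 12.20 and 12.17 with DMSO and 12.15, 12.08 and 12.13 with ATRA. The rise was 0.66 ± 0.05 (adjusted p = 2.26e-07), and a second Slc38a1 probe set differed by 1.26 (adjusted p = 1.55e-06, over all probe sets with 1 symbol). Its neighbours on chromosome 15, Slc38a2 (SNAT2) and Slc38a4 (SNAT4), rose by 0.45 ± 0.04 (adjusted p = 2.42e-06) and 0.24 ± 0.04 (adjusted p = 0.00106). No other protein-coding gene lies between the 3 in the RefSeq gene table. SNAT2 is known as a carrier that cells raise when amino acids are short, and Slc38a4 is imprinted in the mouse.

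Slc38a7 encodes a lysosomal glutamine and asparagine carrier. Slc38a7 read 10.53, 10.58 and 10.52 in ES cells, 11.27, 11.15 and 11.20 in day 4 EBs, 11.18, 11.18 and 11.29 with DMSO and 11.39, 11.40 and 11.37 with ATRA. The rise to day 4 EBs was 0.66 ± 0.05 (adjusted p = 3.42e-07), without overlap. Slc38a9, the gene of the lysosomal arginine sensor of mTORC1, rose by 0.35 ± 0.06 (adjusted p = 6e-04), although its second probe set did not pass (0.13, adjusted p = 0.159 over the same probe sets). Slc36a1, the gene of the proton-coupled carrier PAT1 of lysosomes and plasma membrane, rose by 0.41 ± 0.06 (adjusted p = 8.82e-05). Its neighbours on chromosome 11, Slc36a2 and Slc36a3, were not called (0.03 ± 0.06 and -0.02 ± 0.09). Slc38a6 rose by 0.26 ± 0.06 (adjusted p = 0.00357), and Slc43a2, the gene of the leucine carrier LAT4, by 0.48 ± 0.05 (adjusted p = 1.3e-05).

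Slc38a8 had the largest fall of the 42. Slc38a8 read 8.40, 8.47 and 8.38 in ES cells, 7.06, 7.51 and 7.24 in day 4 EBs, 6.99, 7.20 and 7.07 with DMSO and 7.95, 7.97 and 7.96 with ATRA. The ES arrays stood above all others, the untreated and DMSO arrays overlapped, and the ATRA arrays lay in between. The difference of day 4 EBs from ES cells was -1.15 ± 0.09, or 2.22-fold lower (adjusted p = 8.34e-07). Slc38a5 and Slc38a3, genes of the system N glutamine carriers SNAT5 and SNAT3, fell too, by differences of -0.58 ± 0.06 (adjusted p = 1.54e-05) and -0.23 ± 0.05 (adjusted p = 0.00282). Slc36a4 encodes PAT4, a carrier of proline and tryptophan. Slc36a4 read 9.56, 9.23 and 9.31 in ES cells, 8.36, 8.33 and 8.48 in day 4 EBs, 8.32, 8.33 and 8.41 with DMSO and 8.50, 8.51 and 8.51 with ATRA. It was lower in every EB array, by a difference of -0.98 ± 0.07 in day 4 EBs, or 1.97-fold lower (adjusted p = 5.95e-07). Slc43a3, whose product carries purine nucleobases and not amino acids, and Slc43a1, the gene of the leucine carrier LAT3, lie on chromosome 2 with 1 gene between them. Slc43a3 read 11.67, 11.70 and 11.66 in ES cells, 10.59, 10.77 and 10.56 in day 4 EBs, 10.69, 10.55 and 10.73 with DMSO and 10.93, 10.97 and 10.88 with ATRA. Slc43a1 read 9.07, 9.08 and 9.18 in ES cells, 8.62, 8.71 and 8.68 in day 4 EBs, 8.68, 8.75 and 8.85 with DMSO and 9.48, 9.45 and 9.52 with ATRA. Both were lower in day 4 EBs than in ES cells without overlap, Slc43a3 by a difference of -1.04 ± 0.06 (adjusted p = 7.51e-08) and Slc43a1 by -0.44 ± 0.05 (adjusted p = 4.19e-05).

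Markers of 2 other cell types moved in the same step. Of 10 fibroblast markers, 8 fell beside the 7 transporter genes that fell. Their summed linear level was 12500 to 13000 on the ES arrays, 3870 to 4200 in day 4 EBs, 3830 to 4020 with DMSO and 3360 to 3510 with ATRA. Of 10 visceral endoderm markers, 9 rose beside the 21 transporter genes that rose, and their summed level was 6140 to 6300 in ES cells, 20700 to 23600 in day 4 EBs, 25000 to 28400 with DMSO and 20500 to 23500 with ATRA. No marker was at 0. The lowest single values were 4.56 for Lum among the fibroblast markers and 6.56 for Afp among the visceral endoderm markers, both in ES cells. The part of these cell types in the transporter differences was not tested. For the 7 genes that fell, any feeder cells in the ES samples and a change within the ES cells cannot be told apart. In such bulk samples, fewer cells of a type and less RNA per cell cannot be told apart.

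**Figure D3:**
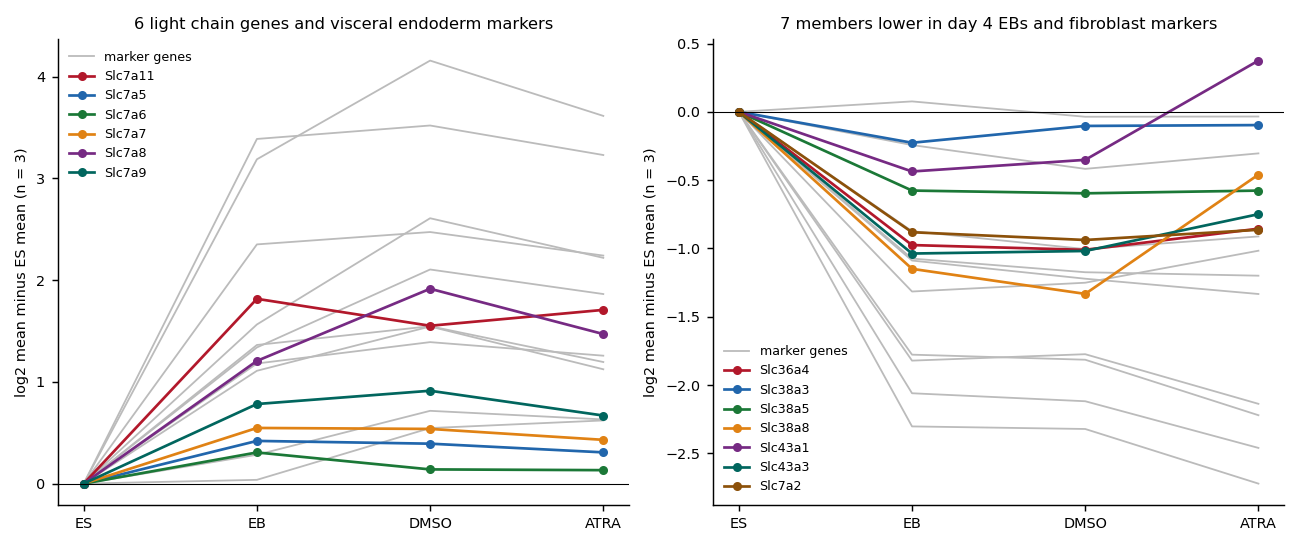
Group means of log2 values minus the ES mean (vertical axis, n = 3 per group) across the 4 groups. Left, the 6 light chain genes that rose and 10 visceral endoderm markers (grey); right, the 7 transporter genes that fell and 10 fibroblast markers (grey). Slc7a8 and most visceral endoderm markers were highest with DMSO. Of the 7 genes, Slc38a8, Slc43a1 and Slc43a3 were called higher with ATRA than with DMSO. Of the 10 fibroblast markers, 1 was called higher and 4 lower. The part of these cell types was not tested.

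DMSO-treated against untreated day 4 EBs tested the solvent together with any added time. Of the 42 genes, Slc7a8 alone was called, higher by 0.71 ± 0.09, or 1.63-fold (adjusted p = 0.0119). The DMSO arrays, 9.39 to 9.70, lay above the untreated arrays, 8.80 to 8.90. The call was lost when DMSO replicate 1, DMSO replicate 3 or EB replicate 1 was left out, with differences of 0.64 to 0.70 and adjusted p of 0.06 to 0.0788. Among all genes 0.747% were called, 0.537% higher and 0.211% lower, and 0.0903% were called with a change of at least 1.5-fold. These 149 calls became 0 without DMSO replicate 1 or without EB replicate 1, 2 without DMSO replicate 3 and 128 without DMSO replicate 2. Without EB replicate 2 they became 33, and without EB replicate 3 they became 48. They became 761 with only the genes of higher mean (above the median) in the fit and 626 with an intensity trend in the variance prior. The share of called genes that were higher was 71.8%, against 57.7% after quantile normalization and 87% after median centring. In limma, 0 of the 42 genes were called lower, and 5 were lower and 5 higher at an unadjusted p under 0.05. The 41 genes that were not called differed by -0.26 (Slc7a11) to 0.19 (Slc36a1). Of the visceral endoderm markers, 4 of 10 were also called higher with DMSO, among them Apoa1 (1.04 ± 0.10) and Hnf4a (0.44 ± 0.07).

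ATRA-treated against DMSO-treated EBs measured the response to ATRA. Of the 42 transporter genes, 7 rose and 4 fell, against 6.26% and 7.05% of all genes. Without ATRA replicate 2, and likewise without DMSO replicate 2, 4 rose and 4 fell. The 11 called genes are 26.2% of the members, against 13.3% of all genes, and the median difference was 0.03 against 0.01 over all genes. Of the 24 members above the median gene in mean value, 9 were called (37.5%), against 19% of all such genes. A change of at least 1.5-fold was called for 3 members and for 1.72% of all genes. These 3 were Slc38a8, Slc43a1 and Slc1a3. In the same comparison 1 of the 10 fibroblast markers rose (Loxl1) and 4 fell, and their part in these differences was not tested.

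Slc38a8, a member of the family of sodium-coupled glutamine carriers, had the largest rise, 0.87 ± 0.09, or 1.83-fold (adjusted p = 4.3e-05). With ATRA its arrays read 7.95 to 7.97, above all DMSO arrays (6.99 to 7.20) and below all ES arrays (8.38 to 8.47). Slc43a1 (LAT3) rose by 0.73 ± 0.05, or 1.65-fold (adjusted p = 2.75e-06). Its ATRA arrays, 9.45 to 9.52, were the highest of all 12. The neighbouring Slc43a3 rose by 0.27 ± 0.06 (adjusted p = 0.0123), a call that ended without ATRA replicate 2 or without DMSO replicate 2 (adjusted p of 0.0582 and 0.0574). Slc7a4, a gene of the CAT branch whose product has no established transport activity, read 7.60 ± 0.07 with DMSO and 7.95 ± 0.13 with ATRA (mean ± SD, n = 3). It rose by 0.35 ± 0.07 (adjusted p = 0.00525) against DMSO, and was the only gene called here that was not called between ES cells and day 4 EBs. Slc38a4 rose by 0.25 ± 0.04 (adjusted p = 0.00272), with levels of 12.65 ± 0.04 with DMSO and 12.90 ± 0.03 with ATRA (mean ± SD, n = 3).

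The 2 smallest rises depended on single arrays and on scaling. Slc1a4 rose by 0.17 ± 0.05 (adjusted p = 0.0469) and Slc38a7 by 0.17 ± 0.05 (adjusted p = 0.0355). After median centring, the adjusted p was 0.11 for Slc1a4 and 0.115 for Slc38a7. The call of Slc1a4 ended without ATRA replicate 2 or 3 or DMSO replicate 1 or 2, and that of Slc38a7 without any of the same arrays or ATRA replicate 1, with the direction kept each time; the highest adjusted p over the alternatives was 0.188 for Slc1a4 and 0.121 for Slc38a7. The call of Slc1a4 also ended with only the 2 groups in the fit (adjusted p = 0.0679).

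Among the falls, Slc1a3 (GLAST) had the largest, -0.59 ± 0.05, or 1.5-fold lower (adjusted p = 1.41e-05). Its ATRA arrays, 8.48 to 8.56, lay below all DMSO arrays (9.07 to 9.20) and untreated EB arrays (8.93 to 9.06). Slc7a8 fell by a difference of -0.45 ± 0.09 (adjusted p = 0.00507), and its ATRA arrays (9.0 to 9.26) still stood above the untreated EB arrays. In the same comparison 6 of 10 visceral endoderm markers fell, among them Ttr (-0.54 ± 0.12) and Hnf4a (-0.42 ± 0.07), and their part in the fall of Slc7a8 was not tested. Slc7a3 (CAT3) fell by a difference of -0.35 ± 0.06 (adjusted p = 0.00144), to 12.25 to 12.34 from 12.57 to 12.73, and stayed above the ES arrays. Slc38a6, whose substrate is not well established, fell, with a difference of -0.26 ± 0.06 (adjusted p = 0.00988). The heavy subunits Slc3a2 (-0.05 ± 0.04) and Slc3a1 (0.04 ± 0.10) were not called, and neither were Slc7a5 (-0.09 ± 0.04), Slc7a7 (-0.11 ± 0.05) or Slc7a11 (0.16 ± 0.14). The 31 genes that were not called differed by -0.24 (Slc7a9) to 0.21 (Slc1a6).

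The 2 comparisons, day 4 EBs against ES cells and ATRA against DMSO, share no array in their group means. Both came from the same fit over all arrays, in which a gene has the same SE in either comparison. Genes with little spread were thus easier to call in both, and the calls of the 2 comparisons are not independent. Of the 42 genes, 10 were called in both, 7 in opposite directions and 3 in the same. Slc1a3, Slc7a3, Slc7a8 and Slc38a6 rose in EBs and fell with ATRA, and Slc38a8, Slc43a1 and Slc43a3 fell in EBs and rose with ATRA. Slc1a4, Slc38a4 and Slc38a7 rose in both. Over all genes, 1768 were called in both, and 76.8% of them in opposite directions, against 70% of the members. Across the 42 genes the differences correlated at Pearson's r = -0.534 (Spearman's rho = -0.481), and across all genes at r = -0.264 (rho = -0.24). These are correlations across genes of the same arrays, given as a description.

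**Figure D4:**
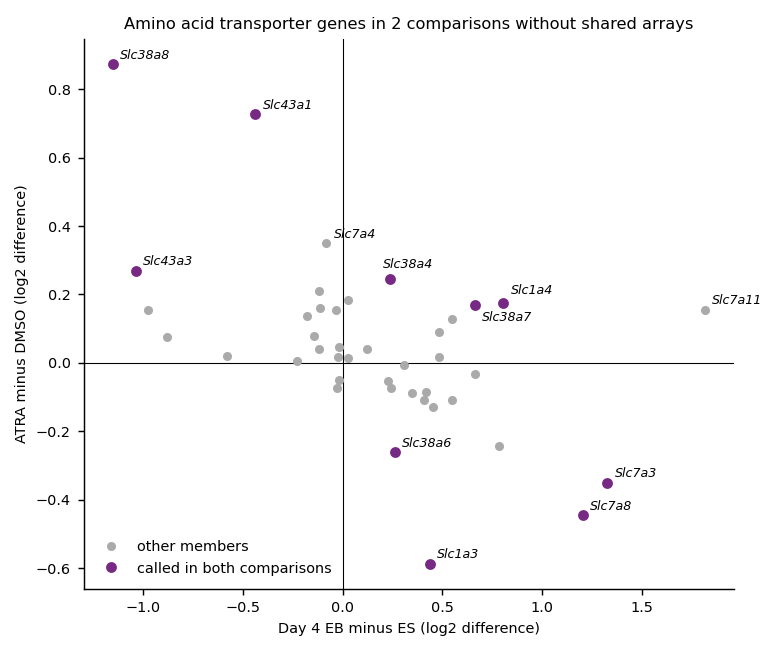
Log2 difference of day 4 EBs from ES cells (horizontal axis) against that of ATRA from DMSO (vertical axis) for the 42 genes. Purple points are the 10 genes called in both comparisons, 7 of which lie in the upper left or lower right.

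The 13 genes called in none of the 3 comparisons were Slc1a2, Slc1a6, Slc1a7, Slc3a1, Slc7a10, Slc7a12, Slc7a13, Slc7a14, Slc7a15, Slc36a2, Slc36a3, Slc38a10 and Slc38a11. Slc38a10 was the only one of them whose mean lay above that of the median gene (8.35). The group means of the 13 genes lay between 4.6 and 10.3. They include light chains known from brain and kidney, such as Slc7a10 (Asc-1) and Slc7a13 (AGT1). Since the table has no detection calls, whether these transcripts were present was not tested.

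Other genes of amino acid supply, sensing and use were read from lists, whose shares can be set beside the 34.7% of all genes called between ES cells and day 4 EBs. Serine, glycine, proline and threonine metabolism genes rose in 10 of 11 cases, with a median difference of 0.41. Gldc, the gene of the glycine cleavage enzyme, rose by 0.50 ± 0.04 (adjusted p = 1.95e-06), and Gcat, which acts in threonine breakdown, by 0.67 ± 0.07 (adjusted p = 6.49e-06). Mthfd1l, a gene of mitochondrial one-carbon metabolism, rose by 0.45 ± 0.05 (adjusted p = 1.02e-05), and Prodh, the gene of proline dehydrogenase, by 0.45 ± 0.05 (adjusted p = 2.79e-05). Genes of the ATF4 amino acid response rose in 11 of 16 cases and fell in 1 (Ppp1r15a, -0.27 ± 0.08), with a median of 0.34. Stc2, a secreted glycoprotein gene induced by stress, rose by 2.13 ± 0.06 (4.38-fold; adjusted p = 2.19e-10). Cth, the gene of the last enzyme of cysteine synthesis, rose by 1.59 ± 0.06 (3.01-fold; adjusted p = 1.62e-09), and Ddit4, an inhibitor of mTORC1 also raised by low oxygen, by 1.12 ± 0.06 (adjusted p = 1.61e-08). Chac1, whose promoter window is printed above, rose by 1.14 ± 0.06 (adjusted p = 4.15e-08), and Asns by 0.26 ± 0.04 (adjusted p = 0.000202).

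Carriers outside the 6 families included Slc6a9, the gene of the glycine carrier GlyT1, which rose by 1.24 ± 0.07 (2.36-fold; adjusted p = 5.38e-08). Of these 13 genes 4 rose and 1 fell, with Slc6a5 (the glycine carrier GlyT2) at 0.28 ± 0.06 (adjusted p = 0.00365), Slc6a6 (the taurine carrier) at 0.46 ± 0.04 (adjusted p = 2.04e-06) and Slc6a15, a neutral amino acid carrier gene of neurons, at 0.94 ± 0.11 (adjusted p = 2.41e-05). The aromatic amino acid carrier gene Slc16a10 fell, at -0.37 ± 0.05 (adjusted p = 7.39e-05). Of 10 mitochondrial carriers 2 rose, Slc25a13 (aspartate and glutamate) by 0.47 ± 0.05 (adjusted p = 4.44e-06) and Slc25a22 (glutamate) by 0.26 ± 0.05 (adjusted p = 0.00153). The glutamate carrier gene Slc25a18 fell, with a difference of -0.36 ± 0.09 (adjusted p = 0.00866). Amino acid sensing and mTORC1 genes rose in 7 and fell in 2 of 19 cases, with a median of 0.03. Fnip1, a partner of folliculin, rose by 0.61 ± 0.05 (adjusted p = 1.12e-06) and Rragd, a Rag GTPase gene, by 0.44 ± 0.05 (adjusted p = 4.4e-05), while the sestrin gene Sesn3 and Nprl3, a gene of the GATOR1 complex, fell, with differences of -0.54 ± 0.04 (adjusted p = 9.47e-07) and -0.17 ± 0.06 (adjusted p = 0.0413). Glutamine and glutathione genes split, 3 higher and 3 lower of 9, with Gclm at 0.39 ± 0.05 (adjusted p = 0.000106), Gclc at 0.23 ± 0.04 (adjusted p = 0.0012) and Glul at 0.30 ± 0.05 (adjusted p = 0.000258) higher. Gpx4, Gss and Got2 were lower, at -0.26 ± 0.06 (adjusted p = 0.00662), -0.23 ± 0.06 (adjusted p = 0.0116) and -0.13 ± 0.05 (adjusted p = 0.0372).

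**Figure D5:**
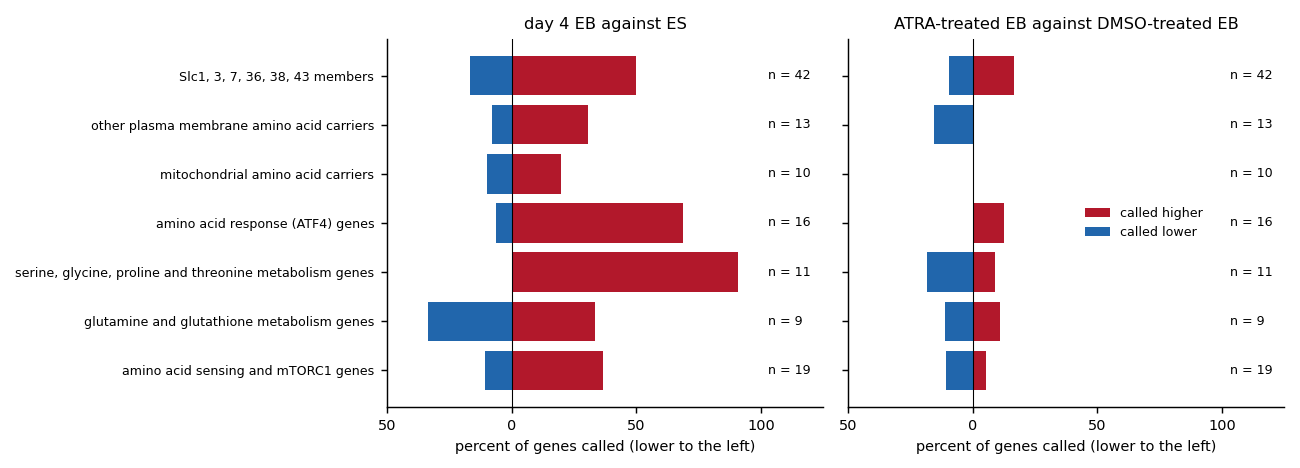
Percent of genes called higher (red, to the right) and lower (blue, to the left) in the transporter families and 6 related lists, for day 4 EBs against ES cells (left) and ATRA against DMSO (right). The number of genes stands beside each bar, and 10 of 11 serine, glycine, proline and threonine metabolism genes were higher in EBs.

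With ATRA, the related lists held fewer calls, to be set beside 13.3% of all genes. Of the metabolism list 1 of 11 rose, Mthfd2 of mitochondrial one-carbon metabolism, by 0.32 ± 0.07 (adjusted p = 0.00589), and 2 fell, with Gldc at -0.23 ± 0.04 (adjusted p = 0.00423) and Prodh at -0.20 ± 0.05 (adjusted p = 0.0263). Of the ATF4 list 2 of 16 rose, Ddit3 (CHOP) by 0.48 ± 0.05 (adjusted p = 7.33e-05) and Chac1 by 0.22 ± 0.06 (adjusted p = 0.045). Of the other carriers 2 of 13 fell, with differences of -0.79 ± 0.11 (adjusted p = 0.000361) for Slc6a15 and -0.27 ± 0.04 (adjusted p = 0.000698) for Slc6a6. Of the sensing list 1 of 19 rose and 2 fell, with Sesn1, a p53-dependent sestrin gene, higher by 0.64 ± 0.07 (adjusted p = 6.55e-05). The genes that fell were Rragc and Lamtor3, at -0.30 ± 0.05 (adjusted p = 0.00283) and -0.13 ± 0.04 (adjusted p = 0.0493). Of the glutamine and glutathione list, Gpx4, the glutathione peroxidase gene that reduces lipid peroxides, rose by 0.68 ± 0.06 (adjusted p = 1.47e-05) and Glul, the glutamine synthetase gene, fell, with a difference of -0.35 ± 0.05 (adjusted p = 0.000301). None of the 10 mitochondrial carriers was called in limma, with 1 higher and 2 lower at an unadjusted p under 0.05.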

How the data were processed

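RNeasy extraction and biotinylated cDNA from an Ambion kit are recorded per the labels' protocols. For 12 arrays, 35556 probe sets are given as log2 values in the table the authors deposited. That the base is 2 was inferred from their range (2.3 to 14.7); how background, normalization and summarization were handled is not given in the sources used here. Replicates correlated at 0.992 to 0.997. Of the probe sets, 21789 had 1 symbol in the platform annotation, 1621 several and 12146 were unlisted there; 21698 matched RefSeq (GRCm38.p6) and 0 symbols changed. R 4.3.3 with limma 3.58.1 (lmFit with group means, eBayes, two-sided, Benjamini-Hochberg over 19938 genes) made 3 comparisons over all 12 arrays, with 8 residual and 3.93 prior degrees of freedom. The code was tested on simulated data. The labels name biological replicates without saying how they were separated, so p-values reflect only the spread among these samples. Genes given with every array were called with at least a 1.5-fold change in any comparison, or were heavy subunits or called light chains. Of each related list, up to 4 called genes by smallest adjusted p over the 3 comparisons were named. Asns (shown for its promoter), Ddit3, Mthfd2, Rragc, Lamtor3, Nprl3, Ppp1r15a, Gss, Got2, Slc6a5 and the markers named were chosen after their values were seen. The members, lists and motif were chosen with earlier results of these data known. Some genes of the related lists are not reported here. Alternatives were quantile normalization, median centring, genes above the median mean only, averaging all probe sets of a gene, a robust prior with an intensity trend, a fit of just 2 groups, a replicate block, and leaving out each array; leaving out ES and EB replicate 2 together was added after seeing the data.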

Additional observations from a re-analysis of the deposited data

How the results depend on the processing

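Of 40 called differences of single transporter genes, 35 kept their direction and call under every alternative run, and none of their 542 alternative values reversed one; 19 ended a call, of Slc1a1, Slc1a4, Slc38a7, Slc43a3 and Slc7a8. For day 4 EBs against ES cells, 21 genes rose under every array left out, and 7 to 9 fell; with only genes above the median of mean value, 4 fell, since fewer genes were tested. With ES replicate 2 and EB replicate 2 both left out, chosen after the array summaries were seen, 27 of the 28 called genes kept their call. For DMSO against untreated EBs, the count of all genes called was 149 and became 253 after quantile normalization, 761 with the filter on mean value, 626 with the intensity trend, 25 with only the 2 groups, 62 with the replicate block, 27 without the arrays numbered 2 of ES cells and EBs, and 0 to 128 with 1 array left out; the cause was not tested. Of the transporter genes, 3 were higher and 1 lower with that filter, 1 was lower with the trend, and 0 to 1 was higher with 1 array left out. For ATRA against DMSO, 4 to 7 rose with 1 array left out. In either direction, 11 were called in the main fit and 11 with the filter on mean value. That count was 12 after quantile normalization, 13 with the intensity trend and 13 with only the 2 groups. It was 9 after median centring and 10 with the replicate block. The replicate numbers matched the ES and EB arrays only in part. Deviations of same-numbered ES and EB arrays correlated at 0.303, 0.506 and -0.065. EB replicates 1 and 2 correlated best with the ES array of the same number. EB replicate 3 correlated best with ES replicate 1 (0.312). For DMSO against untreated EBs and ATRA against DMSO, same-numbered arrays correlated at -0.126 to 0.088. Whether same-numbered samples were handled together was not tested. With the replicate block, Slc38a7 was not called with ATRA (adjusted p = 0.0608), and no other transporter call changed. The number of arrays limits the precision.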
